A study of Homo sapiens with 39 samples.

Results

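The genes described here are the nuclear genes for subunits of the mitochondrial respiratory chain and of ATP synthase in HCT116 cells that produce 1 of 12 isoforms of hepatocyte nuclear factor 4 alpha (HNF4A). They were chosen by gene name alone: names of the form NDUF with A, B, C, S or V and a number, SDHA to SDHD, 8 UQCR names, 11 COX names and the ATP5 names without pseudogenes. The rule found 80 genes among 45435 rows: 37 with NDUF names, counted here as complex I, 4 of complex II, 8 of complex III, 11 of complex IV and 20 of complex V. All 80 passed the filter on low values, a mean of at least 1 TPM over all libraries, as did 15003 genes in all. The names also take in ATP5IF1, the inhibitor of the synthase, and ATP5S, an older name for a gene now called DMAC2L. NDUFA4 is today assigned to complex IV, but is counted by its name here.

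Complexes I and II feed electrons from NADH and succinate into the inner mitochondrial membrane, complex III passes them on to cytochrome c, and complex IV hands them to oxygen. Complexes I, III and IV pump protons, and ATP synthase, complex V, uses the resulting gradient to make ATP. Most subunits come from nuclear genes, while a small core of complexes I, III, IV and V is encoded in mitochondrial DNA (mtDNA), so both genomes contribute to each of these complexes. HNF4A is a nuclear receptor of liver, gut, kidney and pancreas with many targets in lipid and energy metabolism.

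HCT116 is a human colorectal cancer line. Each of the 12 lines carries 1 human HNF4A isoform, fused at its C-terminus to green fluorescent protein (GFP), as a single insertion made with the Flp-In T-REx system, and the parental cells are the host line with no insert. Blasticidin was in the medium of all groups before induction, together with zeocin for the parental cells or hygromycin B for the lines. All 13 groups, parental cells too, then received 2.5 µg/ml doxycycline for 48 h without these antibiotics. Poly(A) RNA was sequenced in 3 libraries per group, 39 in all. Each isoform was studied in 1 line and no line made GFP alone, so an effect of the isoform cannot be told apart from one of GFP, of the line or of the selection it went through. Nothing says that the 3 libraries of a group came from separate cultures, so the p-values below measure the spread between libraries, which may be technical.

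Values are TPM (transcript abundance per library), which are scaled to gene length and to a fixed total per library, and the read depth per library is unknown. HNF4A was at 30.8 to 31.9 TPM in the parental libraries and at 406.9 to 1109 TPM in the lines. Of the epithelial markers, EPCAM was at 432.6 to 624.1 TPM and KRT8 at 1030.0 TPM or more, while CDH1 was at 20.6 to 61.0 TPM and KRT20 at 0.379 to 1.24 TPM. COL1A1, a fibroblast gene, was at 7.76 to 14.9 TPM and CD68, a macrophage gene, at 3.1 to 34.7 TPM, and their part in the results was not tested. The leukocyte gene PTPRC was at 0.296 TPM or less, CD3E was listed at 0 in 29 libraries, and the hepatocyte gene TTR was listed at 0 in 36. Since the cells are a bulk culture, less RNA per cell and fewer cells of a kind cannot be told apart.

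The subunit mRNAs were abundant in every group. Together the 80 genes made up 24032 TPM ± 202 (SD, n = 3) of the parental transcriptome, or 2.4%. Summed TPM was highest in the isoform 2 line, at 27202 ± 769, and stood at 26742 ± 265 in isoform 1. It was 24304 ± 1065 in isoform 4 and 24436 ± 385 in isoform 5, next to the parental value (SD, n = 3 each). COX7C, a small subunit of complex IV, had the highest mean over the 39 libraries, 1461 TPM, followed by ATP5F1B, the catalytic beta subunit of the synthase, at 1145 TPM. ATP5MGL was lowest at 8.94 TPM and ATP5S second lowest at 11.3 TPM.

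**Figure D1:**
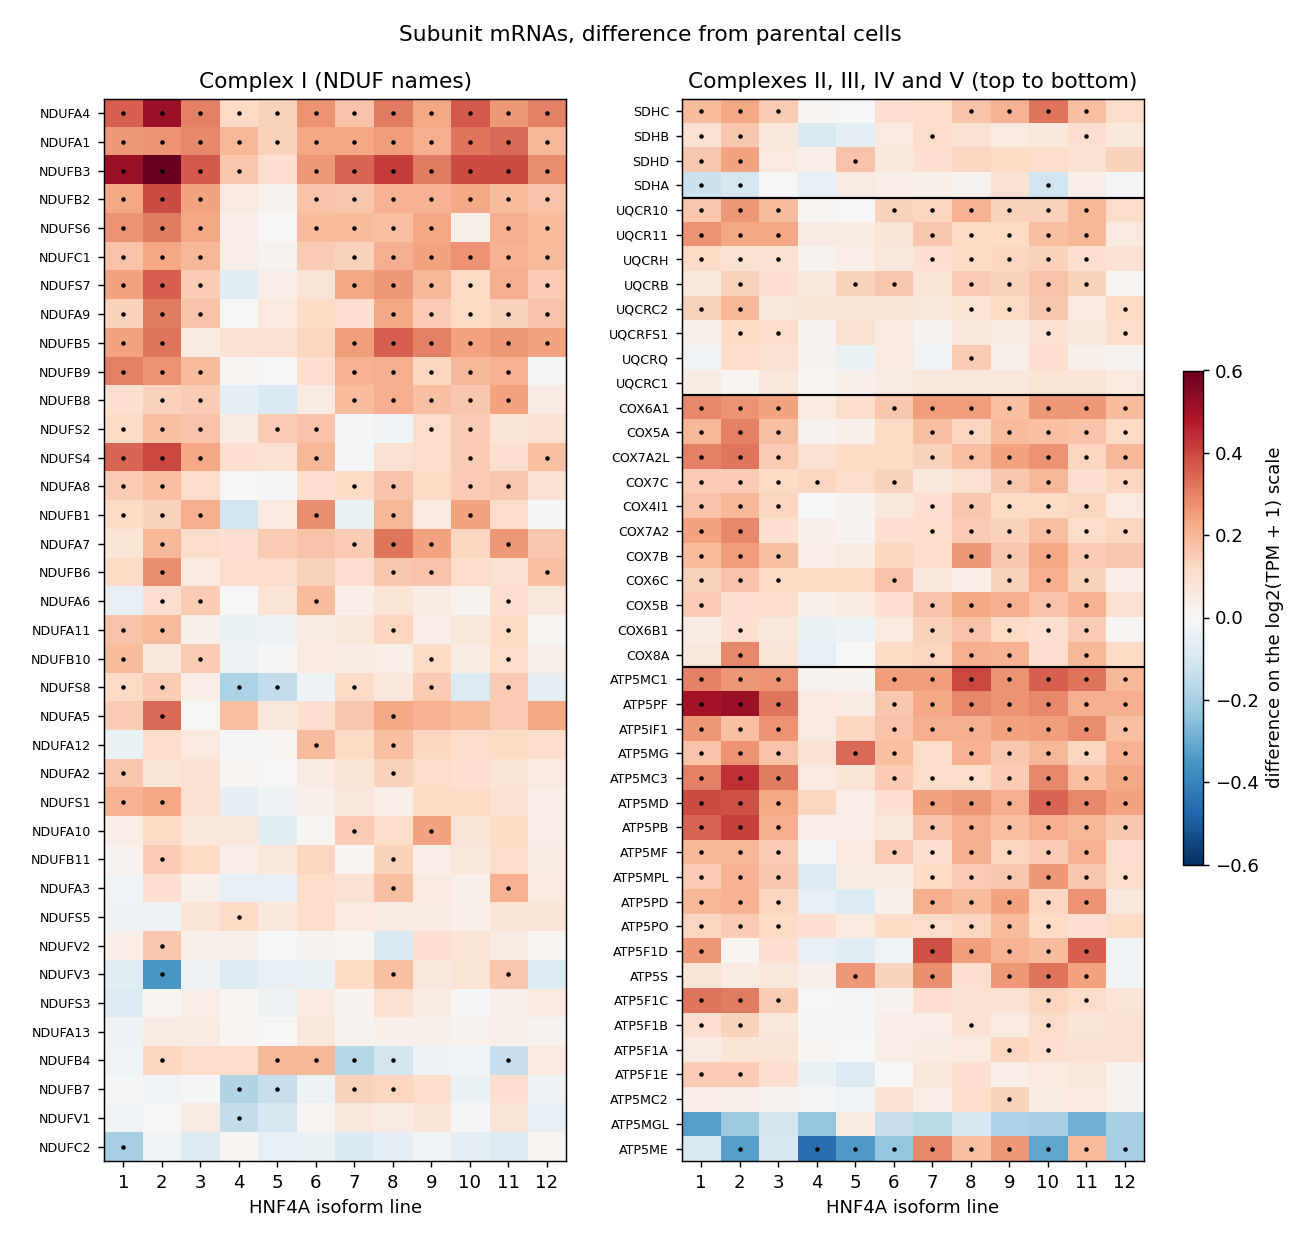
Difference from the parental cells on the log2(TPM + 1) scale (colour) for 80 subunit genes (rows, by complex) in the 12 isoform lines (columns). Dots mark genes with an adjusted p under 0.05. Columns 4 and 5 are the palest, and ATP5ME in the last row of the right panel is red in columns 7, 8, 9 and 11 and blue in the others.

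In the lines of isoforms 1, 2, 3 and 7 to 11, between 39 and 58 of the 80 subunit mRNAs were higher than in parental cells, by small amounts. Each line was compared with the parental cells in 1 limma fit of all 39 libraries on the log2(TPM + 1) scale, and calls needed an adjusted p under 0.05 (Benjamini-Hochberg, over 15003 genes). No minimum fold was set, since abundant subunit mRNAs may move little. No member reached a log2 difference of 1 in any line. In the isoform 2 line 58 of the 80 genes were called higher and 3 lower, where 19.7% of all tested genes were called higher and 35.6% lower. The median log2 difference of the members was 0.177, against -0.09 over all tested genes. In isoform 1 the count was 50 higher and 2 lower (all genes 19.8% and 38.7%), with a member median of 0.147 against -0.107. Isoform 3 had 39 higher and none lower (all genes 11.2% and 14.7%), with medians of 0.109 and -0.043. The shares of all genes, here and below, were not matched to the members for abundance or spread. Genes with a small spread between libraries are called at smaller differences, which limits the comparison of shares.

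The lines of isoforms 4, 5 and 6, which share an N-terminus in the standard nomenclature, had the fewest calls. Isoform 6 stood nearer to isoform 12 than to isoforms 4 and 5. In isoform 4 only 5 members were called higher and 4 lower (all genes 6.26% and 10.1%), with a member median of 0.017 against -0.032. In isoform 5 the count was 8 higher and 3 lower (all genes 9.57% and 5.22%), with medians of 0.034 and 0.012. The share of members called higher, 6.25% in isoform 4 and 10.0% in isoform 5, was thus near that of all genes. Isoform 6 had 23 higher, or 28.7%, and 1 lower (all genes 5.94% and 4.13%), with medians of 0.101 and -0.006. In isoform 12 it was 26 and 1 (all genes 7.92% and 6.65%), with medians of 0.086 and -0.003. Single libraries weighed on the counts of isoforms 4, 5 and 6. The 9 calls in isoform 4 became 4 without parental replicate 3 and 5 without either of 2 of its own libraries. The 11 in isoform 5 became 5 without parental replicate 1, 6 without parental replicate 3 and 6 or 5 without either of 2 of its own. The 24 in isoform 6 became 13 without parental replicate 3 or its own replicate 2 and 12 without its replicate 3. Mean HNF4A mRNA was 856 TPM ± 28.2 in isoform 4, 852 ± 39.8 in isoform 5 and 1071 ± 41.4 in isoform 6 (SD, n = 3 each), against 614 to 948 TPM in the other lines.

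Between 26 and 53 members were called higher in the lines of isoforms 7 to 12. The counts were 40 higher and 1 lower in isoform 7 (all genes 13.4% and 26.2%), 53 and 1 in isoform 8 (all genes 16.9% and 17.5%) and 50 and 0 in isoform 9 (all genes 10.9% and 11.8%). They were 47 and 2 in isoform 10 (all genes 17.0% and 20.4%), 49 and 1 in isoform 11 (all genes 14.5% and 24.0%) and 26 and 1 in isoform 12 (all genes 7.92% and 6.65%). Member medians ran from 0.086 in isoform 12 to 0.149 in isoform 8, while the medians of all tested genes in these 6 lines lay between -0.063 and -0.003. The 50 calls in isoform 9 became 32 without its replicate 2, and the 27 in isoform 12 became 15 without parental replicate 1 and 17 without parental replicate 3 or its own replicate 3. All 12 comparisons use the same 3 parental libraries, so their counts are not independent of each other.

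**Figure D2:**
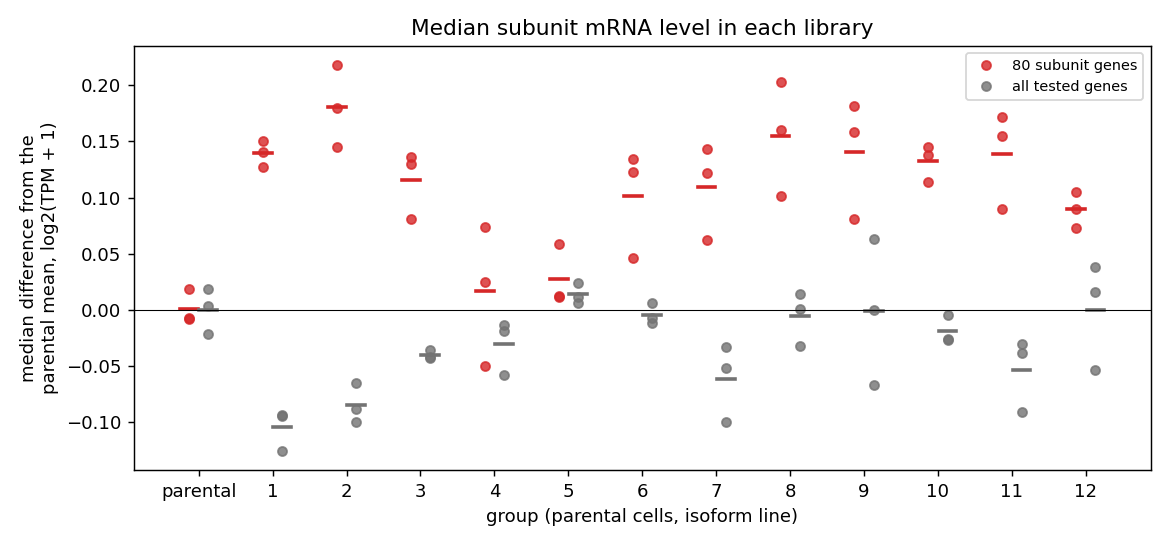
Median difference from the parental mean on the log2(TPM + 1) scale, per library, for the 80 subunit genes (red) and the 15003 tested genes (grey); bars are group means, 3 libraries per group. The subunit medians of the isoform 1 libraries lie at 0.127 to 0.15 and those of isoform 4 at -0.05 to 0.074, around the parental libraries.

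The library medians show the same order. The 3 parental libraries had member medians of -0.007, 0.018 and -0.008 around their own mean. In isoform 1 the values were 0.127, 0.141 and 0.15, and in isoform 2 they were 0.145, 0.218 and 0.18. In isoform 4 the 3 libraries were at -0.05, 0.025 and 0.074 and so lay on both sides of the parental libraries. Isoform 5 was at 0.011, 0.059 and 0.012, which overlaps the parental libraries as well, while in each of the 10 other lines all 3 libraries were above all 3 parental ones. The isoform 3 library with 406.9 TPM of HNF4A, under the 833.5 and 771.8 TPM of the other libraries of its line, had a member median of 0.136, beside 0.13 and 0.081 in those.

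The scaling matters for the size of these differences. Median-of-ratios scaling moved the median of all tested genes by more than 0.1 in isoforms 1 and 2, from -0.107 to 0.015 and from -0.09 to 0.018. With it 67 members were called higher and 0 lower in isoform 1, and 72 and 2 in isoform 2, while 32.0% and 31.1% of all genes were called higher and 25.8% and 23.8% lower. The gap between the member median and the median of all genes changed little: it was 0.254 and 0.267 as deposited and 0.27 and 0.279 after scaling. In isoform 4 the split of calls turned from 5 higher and 4 lower to 18 and 1, with gaps of 0.05 and 0.055. The shares of all genes called higher and lower in isoform 4 turned likewise, from 6.26% and 10.1% to 14.6% and 6.0%.

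By complex, calls were most frequent in complex IV. Over the 12 lines, complex IV genes were called higher in 62.9% of the gene and line pairs and lower in none, where 17.9% of the pairs of all tested genes were lower. The shares were 54.2% for complex V, 44.8% for complex III, 40.1% for complex I and 29.2% for complex II, beside 12.8% for all tested genes. In isoform 9 all 11 complex IV genes were called higher, and in isoforms 2, 10 and 11 it was 10 of 11. In isoform 5 none was. Of the 80 members, 43 were called higher in at least 6 lines, 68 were called higher at least once and never lower, 5 were called in both directions, 3 only lower and 4 never. These counts over lines were not made for all tested genes, so they have no background to be read against. The 4 without a call were NDUFA13, NDUFS3, UQCRC1 and ATP5MGL.

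Complex I held the largest single difference. NDUFB3, an accessory subunit of the membrane arm (chr2:201071433-201085750, GRCh38), was at 94.9, 91.3 and 83.8 TPM in the parental libraries. It was at 126.1, 135.8 and 126.5 TPM in isoform 1 and at 143.9, 146.4 and 147.5 TPM in isoform 2. None of these 6 libraries overlaps the parental ones. The log2 difference was 0.52 ± 0.054 (SE) in isoform 1 and 0.69 ± 0.054 in isoform 2 (limma adjusted p = 1.45e-09 and 4.78e-12). NDUFB3 was called higher in 11 lines and had the largest rise of any member in isoforms 1, 2, 3, 8, 9, 10 and 11. In isoform 5 it was at 93.3, 99.1 and 96.1 TPM, which overlaps the parental range, and was not called (0.10 ± 0.054, adjusted p = 0.264).

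NDUFA1 and NDUFA4 were the genes called higher in all 12 lines. NDUFA1, a small subunit of the membrane arm whose gene lies on the X chromosome (chrX:119871487-119876662), was at 286.8, 291.9 and 265.9 TPM in parental cells. Its lowest group mean in the lines was 310.2 TPM, in isoform 5, where the libraries were at 309.2, 311.0 and 310.4 TPM, all above the parental ones. Its log2 differences ran from 0.14 in isoform 5 (adjusted p = 0.0411) to 0.34 in isoform 11 (1.03e-06). NDUFA4 (chr7:10931951-10940256) was at 84.3, 84.5 and 83.4 TPM in parental cells and at 120.5, 123.6 and 118.0 TPM in isoform 2, a log2 difference of 0.52 ± 0.040 (adjusted p = 4.12e-12). Its smallest difference was 0.12 in isoform 4 (adjusted p = 0.0404). For both genes every library of every line was above every parental library, but after median-of-ratios scaling the isoform 5 calls were lost, at a log2 difference of 0.13 each. NDUFB1, a further accessory subunit, had the largest rise in isoform 6: 187.6, 207.5 and 213.4 TPM against 162.0, 168.3 and 171.1 TPM, a log2 difference of 0.28 (adjusted p = 0.000555).

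Several complex I genes moved in different directions in different lines. NDUFS8, an iron-sulphur subunit of the arm that carries electrons, was at 201.2, 204.9 and 196.2 TPM in parental cells. It was called higher in isoforms 1, 2, 7, 9 and 11, with log2 differences of 0.12 to 0.15, and lower in isoforms 4 and 5. In isoform 4 the libraries were at 168.4, 170.3 and 187.7 TPM (-0.19 ± 0.044, adjusted p = 0.0023) and in isoform 5 at 180.3, 185.0 and 177.1 TPM (-0.15 ± 0.044, adjusted p = 0.0193), below all parental libraries in both. After median-of-ratios scaling the isoform 4 call was lost (-0.13, adjusted p = 0.0759). NDUFB4, of the membrane arm, was called higher in isoforms 2, 5 and 6 and lower in isoforms 7, 8 and 11. Parental values were 426.4, 421.5 and 423.2 TPM, those of isoform 6 were 467.8, 485.3 and 504.5 TPM and those of isoform 7 were 384.8, 387.7 and 356.0 TPM. The log2 difference was 0.20 in isoform 6 (adjusted p = 0.0031) and -0.17 in isoform 7 (0.002), and the 3 lower calls of NDUFB4 were lost after that scaling.

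NDUFV3, a small subunit of the NADH-binding part, was at 44.7, 47.4 and 47.6 TPM in parental cells and at 35.4, 37.5 and 36.5 TPM in isoform 2. The log2 difference of -0.35 ± 0.058 (adjusted p = 7.83e-06) was the largest fall in that line. In isoform 8 NDUFV3 was at 54.9, 50.4 and 53.9 TPM and was called higher (0.18, adjusted p = 0.0137), as in isoform 11 (0.16, adjusted p = 0.0326). NDUFB7 was called lower in isoforms 4 and 5 (-0.18 and -0.14) and higher in isoforms 7 and 8 (0.14 and 0.13), and its lower calls were lost after median-of-ratios scaling. NDUFC2 was called in 1 line: it was at 27.4, 30.9 and 29.2 TPM in isoform 1 against 32.6, 34.2 and 34.0 TPM (-0.20, adjusted p = 0.00853), and the call was lost with that scaling (-0.07, adjusted p = 0.388).

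In complex II, the succinate dehydrogenase that also belongs to the citric acid cycle, the membrane subunit SDHC and the catalytic subunit SDHA behaved differently. SDHC was at 68.0, 72.4 and 68.2 TPM in parental cells and at 87.3, 86.2 and 86.8 TPM in isoform 10, a log2 difference of 0.32 ± 0.046 (adjusted p = 2.7e-06), and was called higher in 7 lines. SDHA (chr5:218241-256700) was at 137.2, 139.8 and 138.3 TPM in parental cells and at 126.6, 128.2 and 125.4 TPM in isoform 1. SDHA was called lower in isoforms 1, 2 and 10 (-0.13, -0.10 and -0.12), but these calls depended on the scaling: with median-of-ratios factors the differences were 0.01, 0.02 and -0.07 and none passed. SDHB, the iron-sulphur subunit, was called higher in 4 lines, with its largest difference in isoform 2 (0.16, adjusted p = 0.000728), and SDHD, the second membrane subunit, in 3 (0.24 in isoform 2, adjusted p = 0.000408).

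No complex III gene was called lower in any line. UQCR11 was at 144.8, 139.9 and 143.8 TPM in parental cells and at 178.6, 171.4 and 167.8 TPM in isoform 1 (0.27 ± 0.040, adjusted p = 9.07e-07), with calls in 8 lines. UQCR10, another small subunit, reached 140.9, 150.6 and 143.0 TPM in isoform 2 against 119.6, 121.8 and 121.0 TPM (0.26 ± 0.041, adjusted p = 3.29e-06), with calls in 9. UQCRC2, a core protein, varied little between replicates: it was at 174.4, 174.1 and 173.9 TPM in parental cells, every library of all 12 lines was above those, and it was called in 6 lines with a largest difference of 0.20 in isoform 2 (adjusted p = 1.85e-06).

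In complex IV the widest ranges belonged to COX8A, COX7A2L and COX5A. COX8A, the smallest subunit, was at 667.0, 648.2 and 653.2 TPM in parental cells and at 765.0, 851.3 and 786.3 TPM in isoform 2 (0.29 ± 0.047, adjusted p = 7.26e-06). It was called in 5 lines. COX7A2L, which joins complexes III and IV in supercomplexes, rose in isoform 2 to 160.8, 166.5 and 168.2 TPM from 127.5, 133.4 and 136.1 TPM (0.32 ± 0.052, adjusted p = 5.04e-06) and in 9 lines in all. COX5A, the partner of the regulatory subunit COX4I1, was at 382.1, 375.4 and 377.2 TPM in parental cells and at 458.8, 482.6 and 455.6 TPM in isoform 2 (0.30 ± 0.040, adjusted p = 1.9e-07), with 9 lines called. COX6A1 was called higher in 10 lines, all but isoforms 4 and 5. Its group means ran from 723.8 TPM in isoform 4 to 844.2 TPM in isoform 1, against 692.1 TPM ± 8.23 (SD, n = 3) in parental cells.

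In ATP synthase, ATP5PF (chr21:25716503-25735673), a subunit of the peripheral stalk that holds the catalytic head still, had the strongest rise. It was at 161.8, 157.2 and 158.2 TPM in parental cells, at 221.8, 231.2 and 223.3 TPM in isoform 1 and at 222.8, 236.3 and 225.8 TPM in isoform 2. The log2 differences were 0.50 ± 0.046 and 0.52 ± 0.046 (adjusted p = 9.47e-11 and 5.91e-11), and the gene was called in 10 lines. In isoforms 4 and 5, the lines without a call, ATP5PF was at 155.9 to 175.1 TPM and 162.5 to 167.0 TPM. ATP5MC1, 1 of the genes for the rotating c-ring, was at 385.5, 382.0 and 386.0 TPM in parental cells and at 509.3, 508.9 and 500.7 TPM in isoform 8 (0.40 ± 0.042, adjusted p = 1.14e-08). It too was called in 10 lines and not in isoforms 4 and 5. ATP5MG, a membrane subunit near the dimer interface, differed in this: its largest rise was in isoform 5, at 211.8, 217.6 and 203.3 TPM against 171.2, 163.9 and 163.7 TPM (0.34 ± 0.050, adjusted p = 1.69e-05). ATP5F1D, the delta subunit of the rotor stalk, was called in 6 lines and had the largest rise of any member in isoform 7, at 391.8, 391.5 and 389.9 TPM against 298.2, 303.5 and 297.0 TPM (0.38 ± 0.046, adjusted p = 5.63e-08). The inhibitor ATP5IF1 was called higher in 10 lines with a median log2 difference of 0.219.

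**Figure D3:**
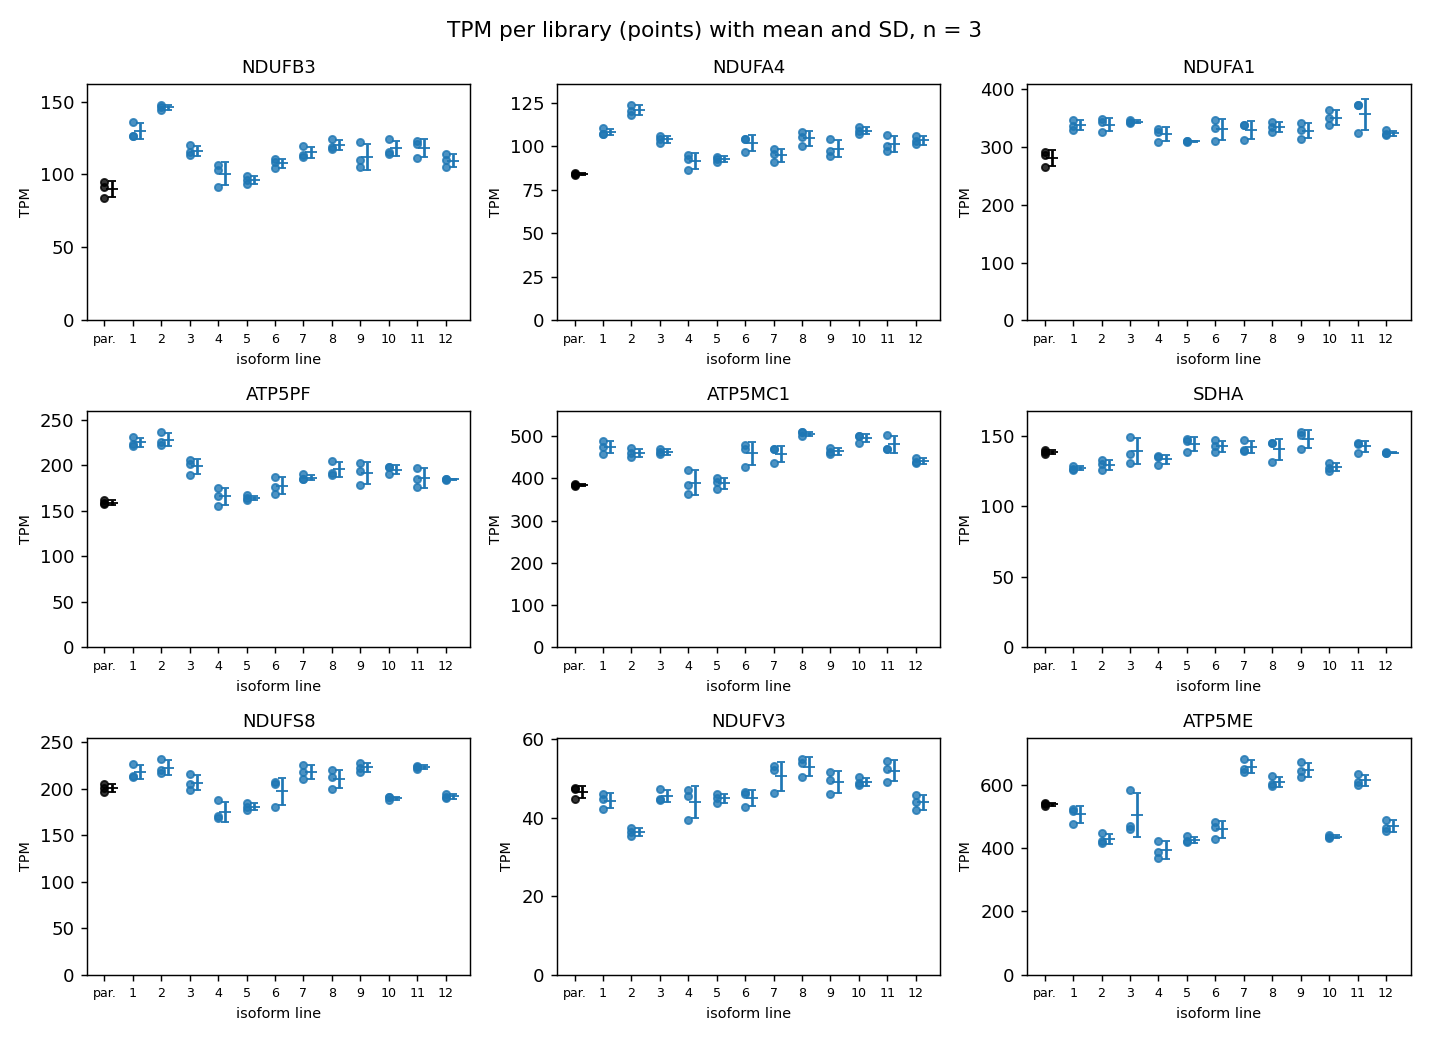
TPM of 9 subunit genes per library (points), with mean and SD (n = 3), in parental cells (black) and the 12 lines (blue); axes start at 0. NDUFB3 reaches 146.0 TPM in isoform 2 against 90.0 TPM in parental cells, while ATP5ME splits the lines, from 393.0 TPM in isoform 4 to 656.5 TPM in isoform 7.

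ATP5ME, the e subunit of the synthase, had the widest range of group means and the most lower calls. It was at 538.1, 542.5 and 533.5 TPM in parental cells. Values were lower in isoform 4, at 368.8, 387.2 and 422.8 TPM (-0.45 ± 0.060, adjusted p = 2.07e-06), and higher in isoform 7, at 640.9, 679.0 and 649.6 TPM (0.29 ± 0.060, adjusted p = 0.000297). In all, ATP5ME was called lower in isoforms 2, 4, 5, 6, 10 and 12 and higher in isoforms 7, 8, 9 and 11. In none of these 10 lines did a library overlap the parental values. Median-of-ratios scaling kept all 6 lower directions, with differences of -0.39 to -0.17, and took the isoform 12 call (adjusted p = 0.0699). In the isoform 3 line, where there was no call, the libraries disagreed: replicate 1, the library with less HNF4A, was at 584.0 TPM, above the parental values, and the others at 470.2 and 458.3 TPM, below them.

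Many genes around ATP5ME were called lower in the lines in which it was lower. Where it was higher, the number of higher calls varied by line and was largest in isoform 7. This window was looked at after its values were seen. ATP5ME lies near the end of the short arm of chromosome 4 (chr4:672436-674338), and 18 other tested genes lie within 1 Mb of it. In isoforms 2, 4, 5, 6, 10 and 12, the lines in which ATP5ME was lower, between 12 and 16 of the 18 were called lower and at most 1 higher. Of all tested genes, 35.6%, 10.1%, 5.22%, 4.13%, 20.4% and 6.65% were called lower in these lines. In isoforms 1 and 3, where ATP5ME was not called, 12 and 10 of the 18 were lower all the same (all genes 38.7% and 14.7%). Where ATP5ME was higher, in isoforms 7, 8, 9 and 11, between 1 and 3 were called lower. Called higher there were 6, 1, 2 and 1 (all genes 13.4%, 16.9%, 10.9% and 14.5%). Over the 76 genes within 10 Mb the counts of lower calls were 62, 59, 45, 53, 61 and 41 in the first set of lines and 8, 17, 4 and 14 in the second, with isoforms 1 and 3 at 47 each. The median log2 difference of these 76 genes was -0.438 in isoform 2 and -0.347 in isoform 10. In the lines with higher ATP5ME it lay on both sides of 0: isoforms 7 and 9 had 0.085 and 0.07, while isoforms 8 and 11 had -0.033 and -0.022. More than 50 Mb away on the same chromosome, 315 tested genes had medians between -0.147 and 0.093.

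**Figure D4:**
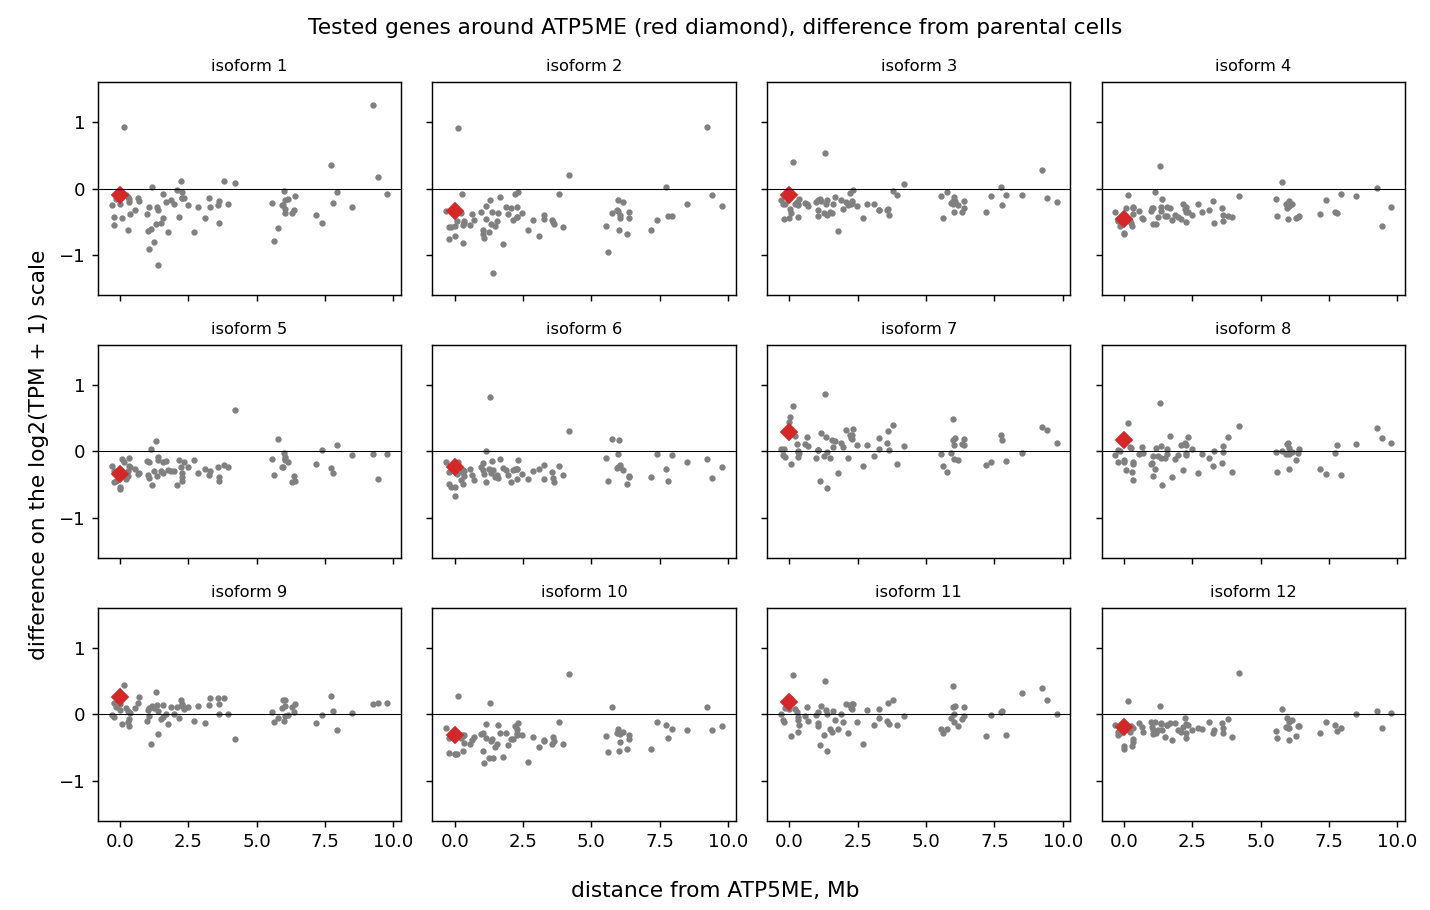
Difference from the parental cells on the log2(TPM + 1) scale for ATP5ME (red diamond) and the 76 other tested genes within 10 Mb of it (grey), by distance in Mb, in each of the 12 lines. In isoforms 2, 4, 6 and 10 most grey points lie below 0, whereas in isoforms 7, 8, 9 and 11 they lie on both sides.

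In the isoform 3 line the median of the 76 genes was -0.142 in replicate 1 and -0.282 and -0.302 in the other libraries, the same order as for ATP5ME itself. The next widest spread of library medians was that of isoform 7, from 0.02 to 0.127. ATP5ME also overlaps MYL5 (chr4:673580-682033), which is read from the opposite strand. MYL5 had a mean of 6.65 TPM, and its differences were -0.66 in isoform 4 (adjusted p = 8.53e-06) and 0.45 in isoform 7 (0.00036). Whether the authors' quantification used strand is not given in the sources used here, so reads of this overlap may not be told apart. Windows of 1 Mb were also read around 7 other members. The most neighbours called in the same direction in any line were 17 of 35 for NDUFS8, higher in isoform 8 (all genes 16.9%), and 7 of 15 for NDUFV3, lower in isoform 1 (all genes 38.7%). They were 7 of 20 for NDUFA1, higher in isoform 2 (all genes 19.7%), and 4 of 8 for NDUFB4, lower in isoform 10 (all genes 20.4%). Around NDUFB3 it was 5 of 17, both higher and lower in isoform 1, around ATP5PF 1 of 5, and NDUFA4 had 1 tested neighbour. What sets the genes near ATP5ME apart in these lines was not tested.

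The lines were also compared with each other directly. These differences do not use the parental libraries, but their errors and adjusted p-values come from the same fit of all 39 libraries. Isoforms 1 and 4 differ in their N-terminus, as do 2 and 5. In isoform 4 against isoform 1, 47 members were lower and 3 higher, with 33.4% of all tested genes higher and 21.8% lower, and in isoform 5 against isoform 2, 48 were lower and 4 higher (all genes 35.8% higher and 18.1% lower). The member medians were -0.142 and -0.15, against 0.062 and 0.098 for all genes. ATP5PF led the first contrast at -0.44 ± 0.046 (adjusted p = 1.35e-09) and NDUFB3 the second at -0.60 ± 0.054 (1.11e-10). The members higher in isoform 4 than in isoform 1 were NDUFC2 (0.21), NDUFS5 (0.14) and NDUFB4 (0.12).

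Differences between isoforms 7 and 1 and between 8 and 2, which differ in the start of the protein, were fewer. In isoform 7 against isoform 1, 9 members were higher and 19 lower (all genes 23.2% and 16.8%), and in isoform 8 against isoform 2, 7 were higher and 19 lower (all genes 29.5% and 14.7%). Without isoform 7 replicate 3 the 28 calls of the former became 17. The second of these depended on the scaling: it became 3 higher and 40 lower with median-of-ratios factors (all genes 19.3% and 22.4%) and 7 and 39 with the mitochondrial transcripts left out of the total (all genes 25.7% and 18.6%). The first became 3 and 24 with median-of-ratios factors (all genes 18.7% and 21.3%). NDUFS4, an accessory subunit of the arm of complex I in the matrix, was lower in both contrasts (-0.36 and -0.31, adjusted p = 4.9e-06 and 5.14e-05). NDUFV3 (0.53 ± 0.058, adjusted p = 1.33e-08) and ATP5ME (0.51 ± 0.060, adjusted p = 6.96e-08) were higher in isoform 8 than in isoform 2.

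With each line as 1 value, the classes of N-terminal form could be compared over 12 lines. In isoforms 4 to 6 against 1 to 3, 27 members were lower and 0 higher (all genes 12.6% and 22.1%), with a median of -0.10. NDUFB3 (-0.36 ± 0.074, adjusted p = 0.00748) and ATP5PF (-0.36 ± 0.058, adjusted p = 0.00332) differed most. The gap was uneven over the lines. Against the parental cells, the isoform 6 line had a member median of 0.101, close to the 0.109 of isoform 3. The isoform 4 line had 0.017 beside 0.147 for isoform 1, and the isoform 5 line 0.034 beside 0.177 for isoform 2. Isoform 6 was not contrasted with isoform 3 directly. Isoforms 7 to 9 against 1 to 3 gave 4 lower and 0 higher (all genes 4.95% and 6.65%): NDUFS4 (-0.26), ATP5MC3 (-0.23), NDUFB4 (-0.18) and ATP5F1C (-0.16), and 5.0% of members is near the share of all genes. The 4 calls became 2 without isoform 3 replicate 2 or 3 or isoform 9 replicate 1, and 8 without isoform 3 replicate 1. Between isoforms 10 to 12 and 7 to 9 no member was called by limma, and 0.0% of all genes were called in either direction, while 2 members had an unadjusted p under 0.05. The classes come from the standard nomenclature of the isoforms, not from the labels.

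The subunits encoded in mtDNA were not called higher in any line. Their 13 mRNAs summed to 94495, 75724 and 86248 TPM in the parental libraries and to between 30472 and 100117 TPM in the lines, with large spread inside a group: isoform 9 had 100117, 45088 and 30472 TPM and isoform 8 had 34249, 85124 and 43391 TPM. The median standard error of a log2 difference was 0.324 for these genes, against 0.047 for complex I members. In isoform 8, 6 of 13 were called lower (all genes 17.5%), COX1, the core subunit of complex IV, among them (-0.90, adjusted p = 0.0285), and in the other lines none was.

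**Figure D5:**
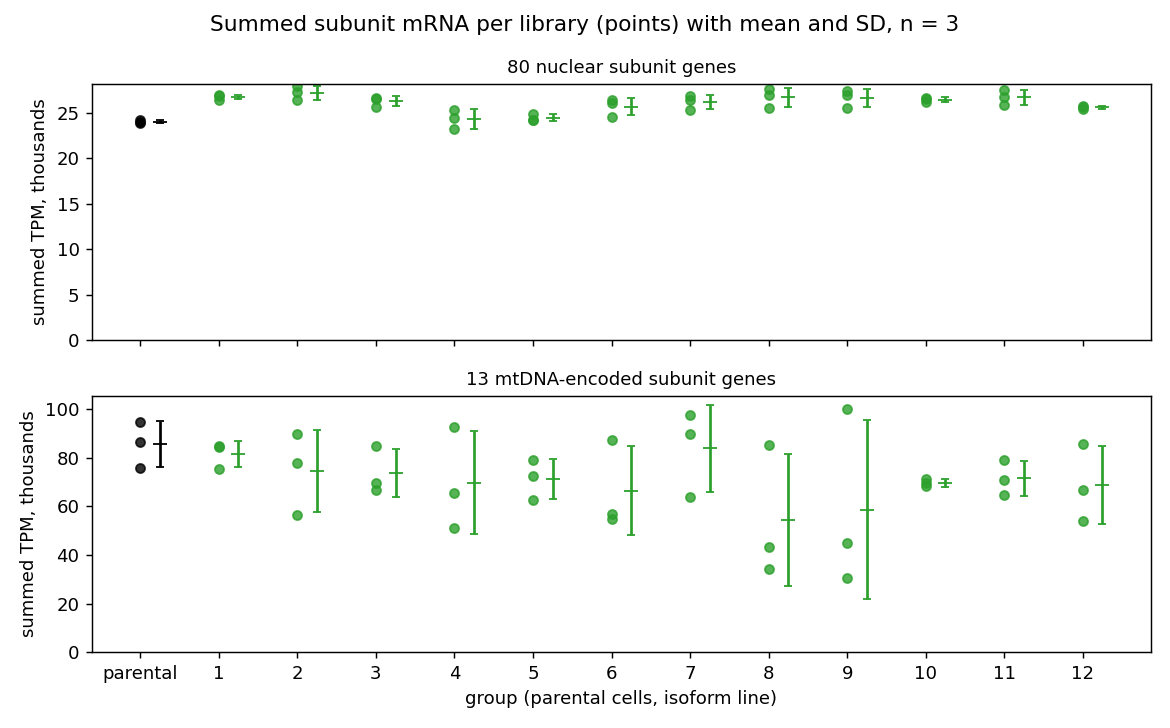
Summed TPM of the 80 nuclear subunit genes (upper) and of the 13 mtDNA-encoded subunit genes (lower) in each library (points), with mean and SD (n = 3); axes start at 0. The nuclear sums stay within 23180.0 and 27938.1 TPM while the mtDNA sums range from 30471.7 to 100117.3 TPM, with the widest spread in isoforms 8 and 9.

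Since TPM has a fixed total, these transcripts, on average 8.55% of it in parental cells and 5.43% in isoform 8, share it with the nuclear genes. In 9 of the 12 lines the library with the most mtDNA transcripts had the lowest member median, and in isoforms 5, 10 and 12 it did not. In isoform 9 it had 0.081, against 0.182 and 0.158 in the others, and in isoform 12 it had 0.09, against 0.073 and 0.105. After the 15 mitochondrial rows were left out and the rest rescaled, 43 members were called higher in isoform 8 (all genes 13.3% higher and 25.2% lower) and 43 in isoform 9 (all genes 8.38% and 18.0%). The member median went from 0.149 to 0.096 in isoform 8 and from 0.14 to 0.095 in isoform 9. With that rescaling 51 were called higher in isoform 1 (all genes 20.2% and 40.5%) and 62 in isoform 2 (all genes 19.5% and 38.6%). In isoform 4 the count became 7 higher and 7 lower, 8.75% of the members each (all genes 6.42% and 14.4%). For isoform 5 it became 11 and 7, or 13.8% and 8.75% (all genes 9.42% and 8.4%).

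Genes of the same pathway outside the name rule differed in the size of their response. Of 14 other subunits and electron carriers, 7 passed the filter. The other 7 are mainly tissue forms of complex IV subunits, such as COX4I2, COX6A2 and COX7A1, at 3.78 TPM or less in every library. Of the 7 tested, 5 were called higher and 2 lower in isoform 1 (all genes 19.8% and 38.7%). Over the 12 lines 54.8% of their pairs were higher and 4.76% lower, against 12.8% and 17.9% for all tested genes. ETFA, which brings electrons from fatty acid oxidation to the chain, was called higher in all 12 lines. It was at 225.3 TPM ± 0.864 (SD, n = 3) in parental cells and at 411.4 ± 9.97 in isoform 1, with a log2 difference of 0.87 there and in isoform 2 (adjusted p = 9.57e-15 and 9.93e-15). Its partner ETFB was called higher in 10 lines, and ETFDH, the enzyme that passes these electrons to ubiquinone, in 9, with log2 differences of 1.11 and 1.28 in isoforms 1 and 2, more than any member. NDUFAB1, the acyl carrier of complex I, was higher in 10.

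Of 48 assembly factors, all tested, 16 were called higher and 6 lower in isoform 1 (all genes 19.8% and 38.7%), and 1 and 5 in isoform 4 (all genes 6.26% and 10.1%), near the share of all genes there. Over the 12 lines they were called higher in 24.0% of pairs and lower in 6.6%, against 12.8% and 17.9% for all tested genes. NDUFAF1, which helps to build the membrane arm of complex I, was called higher in 10 lines, with its largest difference in isoform 1 (0.57, adjusted p = 9.07e-12), while FOXRED1 and NDUFAF6 were called lower in 6 lines each. Among 14 citric acid cycle genes, 10 were higher and 2 lower in isoform 1 (all genes 19.8% and 38.7%). The counts were 10 and 0 in isoform 2 (all genes 19.7% and 35.6%) and 0 and 2 in isoform 4 (all genes 6.26% and 10.1%). Over the 12 lines 32.7% of their pairs were higher and 5.36% lower. FH, fumarate hydratase, was called higher in 10 lines (0.33 in isoform 3, adjusted p = 2.04e-06), whereas IDH2 was called lower in 5. Cytosolic ribosomal protein genes, another set of short abundant mRNAs, were called higher in 20.2% of pairs and lower in 3.74%. They had most higher calls in isoform 4, 25 of 78 (all genes 6.26%), the line with 5 higher calls among the members.

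Of 15 regulators of mitochondrial genes, 14 were tested. In isoform 1, 4 were called higher and 7 lower (all genes 19.8% and 38.7%), and over the 12 lines 15.5% of pairs were higher and 13.7% lower, near the 12.8% and 17.9% of all tested genes. ESRRA, a nuclear receptor that activates respiratory genes, was called higher in 9 lines and in none of isoforms 4, 5 and 6. It was at 52.9 TPM ± 1.33 in parental cells, 89.4 ± 2.55 in isoform 1 and 81.8 ± 1.27 in isoform 2 (SD, n = 3), with log2 differences of 0.75 and 0.62 (adjusted p = 2.03e-15 and 2.03e-13). The regulator NRF1, another activator of these genes, was called lower in 3 lines and higher in none, and PPARGC1A, their coactivator, was at 0.0628 TPM or less in all 39 libraries.

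Promoters were read for the motifs of 4 such regulators. RefSeq's table (GRCh38.p14) gave 79 promoters for 66 of the 80 members, and the 250 bases before each start were searched on both strands for GCATGCGC (NRF1), CCGGAAG (ETS factors such as GABPA), AAGATGGC (YY1) and CAAAGTCCA (HNF4). The NRF1 letters were in 17.7% of the member promoters and in 2.6% of all 34943, the ETS letters in 24.1% and 8.48%, the YY1 letters in 2.53% and 1.36%, and the HNF4 letters in 0.0% and 0.326%. In the 22049 promoters of protein-coding genes the shares were 3.22% for NRF1, 10.6% for ETS, 1.37% for YY1 and 0.308% for HNF4. The 2 member promoters with the YY1 letters both belong to ATP5PF and hold the same site. Members with an NRF1 match were called higher in a median of 4.0 lines, those with an ETS match in 5.5 and those with neither in 6.0. A match is a description of letters and not a bound site. The matches of the genes that hold both NRF1 and ETS letters and of NDUFA1, called in all lines, are shown 5′ to 3′ on the strand of the gene, with the match or its reverse complement in capitals and up to 10 bases on each side. A further ETS match of ATP5PF, beside its other start, and an NRF1 match of SDHD that overlaps the one in capitals are not marked.
COX6A1, NRF1, chr12:120437885-120437912, plus strand: gagggcacacGCATGCGCacgaaggaaa
COX6A1, NRF1, chr12:120437929-120437956, plus strand: gaggtgcagaGCGCATGCtctctcttgc
COX6A1, ETS, chr12:120438087-120438112, plus strand: tccacttccgCTTCCGGcgctgcggc
COX5B, NRF1, chr2:97645916-97645943, plus strand: gcagagctggGCATGCGCaatttccgcc
COX5B, ETS, chr2:97646015-97646041, plus strand: aagcccgcccCCGGAAGtccctcctgt
SDHB, NRF1, chr1:17054215-17054242, minus strand: agccaaatggGCATGCGCcgctactgcg
SDHB, ETS, chr1:17054144-17054170, minus strand: acccgggaaaCCGGAAGccgcctccca
SDHD, NRF1, chr11:112086753-112086780, plus strand: agctgtgtttGCGCATGCgcgacgggtg
SDHD, ETS, chr11:112086786-112086812, plus strand: cgcctctcgaCTTCCGGttcacccagc
ATP5PF, NRF1, chr21:25735157-25735184, minus strand: cactcaaagaGCGCATGCgtacagagca
ATP5PF, ETS, chr21:25735068-25735094, minus strand: gccaggggacCCGGAAGcacttaccct
ATP5PF, YY1, chr21:25735094-25735121, minus strand: aggcgaagaaAAGATGGCggaggctgtg
NDUFA1, ETS, chrX:119871775-119871801, plus strand: tccgtcgcttCTTCCGGagccgtacgt

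The annotated span of ATP5PF, which holds the matches shown, overlaps that of GABPA, read from the opposite strand, so reads of the overlap may not be told apart. ATP5PF was called higher in 10 lines, with log2 differences of 0.50 and 0.52 in isoforms 1 and 2. GABPA was called higher in 1 line, isoform 12 (0.26 ± 0.080, adjusted p = 0.0295), and its differences in isoforms 1 and 2 were 0.15 and 0.04 (adjusted p = 0.117 and 0.71). COX6A1 and ATP5PF, each with both motifs, were called higher in 10 lines, and SDHB and SDHD, with the same letters, in 4 and 3. The promoter windows of NDUFB3 and NDUFA4 hold neither the NRF1 nor the ETS letters, and these genes were called higher in 11 and 12 lines.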

How the data were processed

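Per the submitters' processing notes, kallisto 0.44.0, Trimmomatic 0.36, FastQC 0.11.5, DESeq2 1.22.2 and the build GRCh38.p12 were named, with no role or setting. The authors deposited TPM per gene for each library, and for each line a comparison with the parental cells: mean normalised counts as a signal, log2 fold changes with errors, a test statistic as a score, and p-values with adjusted p-values. The 12 HNF4A rows were summed. Differences were fitted with limma 3.58.1 in R 4.3.3 on log2(TPM + 1), which understates changes of low genes, over the 15003 genes whose mean reached 1 TPM, with 13 group terms (26 residual df); line classes used the 12 line means and an added C-terminal term. The code was tested on simulated data. Alternatives were a pseudocount of 0.1, a filter of 5 TPM or none, median-of-ratios scaling, no variance trend, left-out libraries, a replicate block, a minimum log2 fold of 1, the authors' deposited adjusted p-values and, added after seeing the data, a total without 15 mitochondrial rows.

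The members, lists and tests were chosen with earlier results of these data known. Genes named are those with the 3 widest ranges per complex, the 5 with most higher calls and the 5 with most lower calls over the lines, the largest rise and fall in each line, and the most-called gene of each list; others named were chosen after their values were seen. The mtDNA-encoded genes were matched through RefSeq synonyms. Gene positions are from GENCODE v29 (GRCh38). Per the labels, the libraries of isoform 4 share 1 column code, as do those of isoform 5, so their columns were not matched to replicate numbers. Members without a RefSeq promoter under a unique name were not searched for motifs.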

Additional observations from a re-analysis of the deposited data

Results flagged for a closer look

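4 members were called in opposite directions in the 2 lines of a direct contrast, with the difference between the lines itself called by limma. NDUFS8 was lower in isoform 4 than in isoform 1 (-0.31 ± 0.044, adjusted p = 4.79e-07) and lower in isoform 5 than in isoform 2 (-0.30 ± 0.044, adjusted p = 1.08e-06). In isoform 8 against isoform 2, NDUFB4 was lower (-0.24 ± 0.044, adjusted p = 4.89e-05), and ATP5ME (0.51 ± 0.060, adjusted p = 6.96e-08) and NDUFV3 (0.53 ± 0.058, adjusted p = 1.33e-08) were higher. After median-of-ratios scaling the lower calls of NDUFS8 in isoform 4 and of NDUFB4 in isoform 8 against the parental cells were lost. Groups of 3 libraries were not tested for a library that stands apart.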

How the results depend on the processing

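Requiring a log2 fold change of 1 left 0 members called in every line, pair and class. With median-of-ratios scaling, calls against the parental cells were 60 in isoform 3, 19 in isoform 4 and 69 in isoform 7, 43 between isoforms 8 and 2 and 42 between classes 4-6 and 1-3. The 60 and 69 were all higher and the 42 all lower. Of all genes, 19.3% were higher and 9.29% lower in isoform 3, and 14.7% and 18.1% between these classes. For isoform 7 the shares of all genes went from 13.4% higher and 26.2% lower to 24.5% and 17.0%, so higher calls rose among all genes too. The member medians became 0.286, 0.297, 0.177, 0.084, 0.205, 0.175, 0.228 and 0.114 in isoforms 1, 2, 3, 4, 7, 10, 11 and 12, and SDHA in isoform 1 changed sign to 0.01. With the mitochondrial rows left out of the total, an alternative chosen after seeing the data, 14, 18 and 46 members were called in isoforms 4 and 5 and between 8 and 2, and medians were 0.096, 0.102 and 0.058 in isoforms 8, 10 and 12. With no filter on low values the counts were 5 in isoform 4, 7 in isoform 5, 14 for class 4-6 and 0 for class 7-9, and without a variance trend 2 for class 7-9. Directions and the shares of all genes are not given here for these 2 settings. The authors' deposited adjusted p-values gave 15, 37 and 65 members in isoforms 4, 6 and 7. Of these, 14, 36 and 65 were higher and 1, 1 and 0 lower. Shares of all genes with an adjusted p there were 13.1%, 9.83% and 16.1% higher and 8.44%, 7.03% and 12.9% lower. In isoforms 1, 2, 3, 5 and 8 to 12, 69, 73, 58, 9, 62, 44, 61, 74 and 31 members were higher. Lower were 0, 2, 0, 7, 0, 0, 1, 0 and 1 (all genes 9.03% to 21.8% higher and 7.09% to 17.3% lower). The cause of these shifts was not tested.

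Leaving out 1 replicate number or library at a time gave 17 to 41 calls in isoform 3, 3 to 11 in isoform 4, 4 to 13 in isoform 5, 4 to 28 in isoform 6, 19 to 47 in isoform 7, 34 to 61 in isoform 8, 18 to 58 in isoform 9, 22 to 54 in isoform 11 and 6 to 32 in isoform 12. It gave 9 to 30 between isoforms 7 and 1, 17 to 31 between 8 and 2 and 2 to 8 for class 7-9, with medians of 0.131 to 0.156 in isoform 1 and 0.073 to 0.104 in isoform 12. These counts pool both directions, and the shares of all genes called in the same fits are not given here. Fits without a replicate number kept all libraries of isoforms 4 and 5, whose columns carry no number, so the ranges of these lines are not the same check. TPM gives no read depth, so counting error could not be set beside these differences.

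The main fit did not pair libraries by replicate number. Deviations of same-numbered libraries had correlations from -0.175 to 0.232, with a median of 0.0542 and 38 of 165 over 0.1. Between other-numbered libraries the median was -0.0293, with 12 of 330 over 0.1. Of 33 libraries, 29 correlated best with their own number, so same-numbered libraries may share a part of the spread that the main fit ignores. What they share was not tested. With the replicate block, 51, 62, 41, 26, 44, 56, 53, 49, 53 and 29 members were called in isoforms 1, 2, 3 and 6 to 12, 29 between isoforms 7 and 1 and 27 between 8 and 2. Both directions are pooled in these counts, and the shares of all genes called with the block are not given here. Isoforms 4 and 5 had no block fit, since their columns could not be matched to replicate numbers.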
